A study of Mus musculus with 8 samples.

Results

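Endothelial cells line the capillaries that run through every pancreatic islet, and the 34 genes described here are transcripts typical of those cells. The genes were taken from a list of symbols, and each symbol was matched through its Ensembl mouse identifier to the 55414 genes counted in every library. All 34 were found, and all 34 were among the 20509 genes that passed the filter on low counts. By class, 27 were listed as general endothelial genes, 4 as linked to capillaries (Gpihbp1, Kdr, Emcn and Esm1), 1 to fenestrations (Plvap) and 2 to lymphatic vessels (Flt4 and Lyve1). The general class includes genes described below with a narrower range, such as Sox17 and Tal1.

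RNA was sequenced from pancreatic islets of C57BL/6 mice aged 5 weeks, in 8 libraries that form 2 groups of 4. The 4 libraries labelled TG have the genotype Ins2 cre(+/-) ATF4 TG(+/-), and the 4 labelled WT have the genotype Ins2 cre(-/-) ATF4 TG(+/-). Both groups therefore carried the ATF4 transgene in the heterozygous state, and they differ in Ins2 cre, which by its name places Cre recombinase under the insulin 2 promoter, active in beta cells. No group held the Cre driver without the transgene, so effects of Cre itself and of the ATF4 transgene cannot be told apart. The series title concerns endoplasmic reticulum stress, ATF4 and Pde4d in beta cells, and the present comparison asks how the transcripts of islet vessels differ between those 2 groups.

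The libraries held 16521087 to 22499999 counts assigned to genes, in which 3 counts equal 0.133 to 0.182 CPM (counts scaled to library size). A gene without counts could lie up to that level, counting error alone considered. The labels do not tie samples to animals, so each p-value reflects the spread among the samples at hand, and that spread may be technical. Atf4 stood at 261 ± 19.8 CPM with the TG label and 352 ± 21.1 CPM with the WT label (mean ± SD of 4 libraries), a log2 difference of −0.43 (SE 0.085, adjusted p = 0.00226, edgeR quasi-likelihood test with Benjamini-Hochberg adjustment). Transcripts of the transgene need not be counted under Atf4, and this direction is the opposite of the label, so directions are given throughout for libraries as labelled. In the genes considered here some libraries stood apart. TG-labelled replicates 2 and 3 held 497 and 413 CPM of 14 macrophage genes, against 107 to 245 CPM in the other libraries. WT-labelled replicate 3 had the highest value of its group for 33 of the 34 endothelial genes, the exception being Sox18, and TG-labelled replicate 1 held 51398 CPM of 14 acinar genes, against 1582 to 16111 CPM in the other 7 libraries.

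Islets receive a denser capillary bed than the exocrine tissue around them, and the wall of these capillaries is thin and pierced by fenestrations, through which hormones reach the blood. Beta cells release vascular endothelial growth factor A (Vegfa), which acts on its receptor Kdr on endothelial cells and maintains this bed. Endothelial identity rests on ETS transcription factors such as Erg and Fli1 and on the SOX factors Sox7, Sox17 and Sox18, which bind near the start sites of many endothelial genes.

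To show the DNA around the starts of genes that moved together and of one that did not, the 250 bases upstream of the start sites of Egfl7, Emcn, Robo4 and Esm1 are printed below, 5′ to 3′ along the strand of the gene, from RefSeq on the mouse build GRCm38.p6. Capitals mark the letters AGGAAG of an ETS motif and ACAAT of a SOX motif on either strand. Egfl7, shown by the most upstream of its 3 windows, lies on the plus strand at chr2:26580833-26581082, Emcn on the plus strand at chr3:137340828-137341077, Robo4 on the plus strand at chr9:37401722-37401971 and Esm1 on the plus strand at chr13:113209409-113209658.
Egfl7: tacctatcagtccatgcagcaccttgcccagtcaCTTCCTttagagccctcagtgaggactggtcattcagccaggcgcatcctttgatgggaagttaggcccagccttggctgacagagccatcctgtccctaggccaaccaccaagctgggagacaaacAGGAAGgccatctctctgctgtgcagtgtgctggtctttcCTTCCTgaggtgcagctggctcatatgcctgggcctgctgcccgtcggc
Emcn: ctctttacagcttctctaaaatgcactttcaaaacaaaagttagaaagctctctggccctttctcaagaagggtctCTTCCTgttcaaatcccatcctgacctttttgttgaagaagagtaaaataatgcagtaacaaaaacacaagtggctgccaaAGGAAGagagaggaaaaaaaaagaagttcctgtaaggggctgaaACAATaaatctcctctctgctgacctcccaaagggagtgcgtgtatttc
Robo4: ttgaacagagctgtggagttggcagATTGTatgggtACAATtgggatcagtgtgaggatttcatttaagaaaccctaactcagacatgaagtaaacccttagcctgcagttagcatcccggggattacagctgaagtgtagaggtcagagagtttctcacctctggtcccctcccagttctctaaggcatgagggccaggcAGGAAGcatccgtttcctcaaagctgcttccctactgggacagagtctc
Esm1: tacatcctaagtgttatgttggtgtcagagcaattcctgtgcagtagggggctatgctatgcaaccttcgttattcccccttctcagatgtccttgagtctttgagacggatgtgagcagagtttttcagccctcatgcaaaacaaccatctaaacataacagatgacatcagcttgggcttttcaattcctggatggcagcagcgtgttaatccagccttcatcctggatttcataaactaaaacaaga
The printed Egfl7 window holds 3 ETS matches, the Emcn window 2 ETS and 1 SOX, the Robo4 window 1 ETS and 2 SOX, and the Esm1 window none of either. Among windows not printed, those of Cldn5, Kdr, Flt4 and Tal1 also held neither motif, and these genes were called higher below. The most downstream Egfl7 window held neither as well. Whether a match goes with the change in level was not tested. In all, 16 of the 34 genes matched 21 such windows. An ETS match was present for 9 of the 16 genes and in 10 of the 21 windows, against 29.5% of the 32841 mouse windows of the same length. A SOX match was present for 7 of the 16 genes and in 7 windows, against 27.7% of all windows. The motif of GATA factors, searched by the letters AGATAA on both strands, was present for 2 genes (Erg and Tal1) in 2 windows, against 9.99% of all windows. A match is a run of letters and not a measured binding site. The 18 genes with no matched window were Pecam1, Cdh5, Plvap, Esam, Fli1, Sox7, Sox17, Sox18, Mmrn2, Ptprb, Vwf, Nos3, Ramp2, Ecscr, Gpihbp1, Cd93, Icam2 and Lyve1.

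Endothelial transcripts were about 2-fold more abundant in the RNA of the TG-labelled islets. Of the 34 genes, 29 were called higher and 0 lower by edgeR's quasi-likelihood test at an adjusted p under 0.05 (Benjamini-Hochberg over all tested genes). Among all 20509 tested genes 20.1% were called, 12.1% higher and 8.06% lower. At an unadjusted p under 0.05 the count was 31, all of them higher, and DESeq2 and limma-voom each called 31 higher and 0 lower. The median log2 fold change of the 34 was 1.05, a 2.07-fold difference, whereas the median over all tested genes was −0.00. In 26 of the 34 genes every TG-labelled library exceeded every WT-labelled one, which held for 12.6% of all tested genes. The 5 genes that did not pass the test were Vwf, Cd93, Sox7, Esm1 and Lyve1. In bulk RNA, fewer cells of a type and less RNA per cell cannot be told apart, nor can more of either.

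Summed over the 34 genes, the TG-labelled libraries 1 to 4 held 2603, 2511, 2512 and 2559 CPM, and the WT-labelled libraries 1 to 4 held 1148, 995, 1810 and 985 CPM. The 4 TG-labelled sums lay close together. The WT-labelled sums did not, since replicate 3 stood well above the other 3, and it was still below every TG-labelled library. The means were 2546 ± 43.9 and 1235 ± 391 CPM (SD, n = 4 each), a ratio of 2.06, or 2.43 without WT-labelled replicate 3. With that library left out, 31 of the 34 genes were called higher. Leaving out 1 of the other libraries gave between 22 calls (without WT-labelled replicate 1) and 27 calls (without TG-labelled replicate 4).

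**Figure D1:**
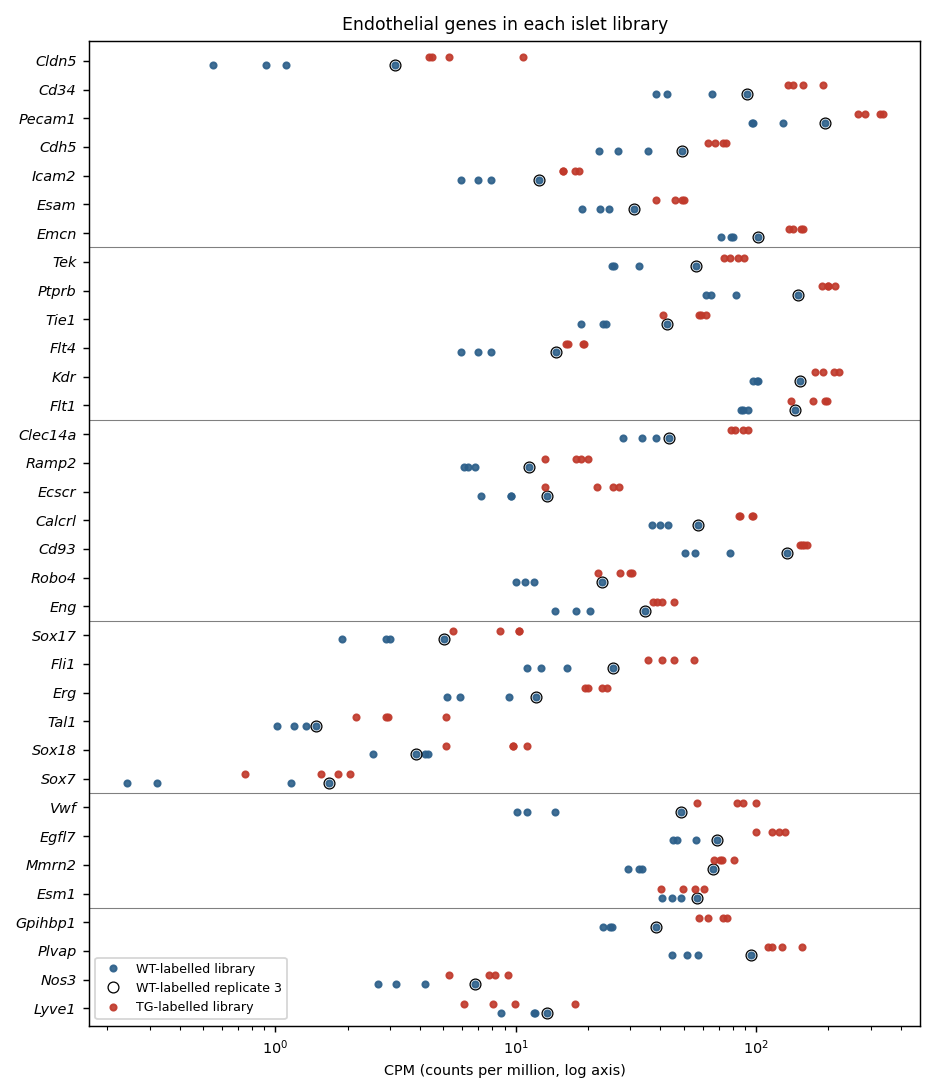
Level of each of the 34 endothelial genes in each of the 8 libraries, in CPM on a log axis, with genes grouped by role and ordered by log2 fold change within a role. Blue points are WT-labelled and red points TG-labelled libraries, and a ring marks WT-labelled replicate 3. That library was the highest WT-labelled one for 33 of the genes, and its summed level came closest to those of the TG-labelled libraries.

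Junction and surface proteins, which hold endothelial cells together and line their surface, were all called higher (7 of 7, median log2 fold change 1.06). Pecam1 (ENSMUSG00000020717), an adhesion molecule of endothelial junctions and of platelets and leukocytes, measured 337, 267, 286 and 327 CPM in TG-labelled libraries 1 to 4 and 129, 96.5, 194 and 97.7 CPM in WT-labelled libraries 1 to 4. Cdh5 (ENSMUSG00000031871), the cadherin of endothelial adherens junctions, measured 75.4, 63.4, 67.3 and 73.2 CPM against 35.7, 22.2, 49.4 and 26.6 CPM in the same order. For both genes every TG-labelled library was above every WT-labelled one, and replicate 3 was again the highest of the WT-labelled group. Pecam1 rose with a log2 fold change of 1.23 (SE 0.23, adjusted p = 0.00603) and Cdh5 with 1.06 (SE 0.22, adjusted p = 0.00845, edgeR quasi-likelihood test for both). Cd34, a sialomucin of capillary endothelium, rose from 59.7 ± 24.7 to 157 ± 23.6 CPM (SD, n = 4 each), by 1.39 on the log2 scale. Emcn, a sialomucin of venous and capillary endothelium, had the smallest rise of the group, from 83.3 ± 13.2 to 147 ± 9.27 CPM (0.82, SE 0.10), with an adjusted p of 7.09e-05 by edgeR. Esam and Icam2, adhesion molecules, changed by 0.92 and 1.01 on the log2 scale.

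Cldn5 (ENSMUSG00000041378), the claudin of endothelial tight junctions, is thinly expressed in islets and gave the largest log2 fold change of the 34 genes, 2.09 (SE 0.49, adjusted p = 0.0117, edgeR). It measured 10.7, 5.29, 4.37 and 4.50 CPM in the TG-labelled libraries and 0.92, 1.11, 3.15 and 0.55 CPM in the WT-labelled ones, and the groups did not overlap. TG-labelled replicate 1 had about 2 times the level of the other TG-labelled libraries. Without it the log2 fold change was 1.71 and the adjusted p 0.0167 by edgeR.

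Receptor tyrosine kinases and the phosphatase that restrains them were called higher in 6 of 6 cases (median 1.01). Kdr (ENSMUSG00000062960), the main signalling receptor for Vegfa, measured 176, 222, 190 and 212 CPM in TG-labelled libraries 1 to 4 and 102, 101, 153 and 97.3 CPM in WT-labelled libraries 1 to 4. Flt1 (ENSMUSG00000029648), a high-affinity receptor that also acts as a decoy for Vegfa, measured 140, 198, 172 and 195 CPM against 88.7, 87.1, 146 and 92.7 CPM. The groups stayed apart for Kdr, while for Flt1 the lowest TG-labelled library, replicate 1, lay below WT-labelled replicate 3. Their log2 fold changes, 0.82 (SE 0.14, adjusted p = 0.00109) for Kdr and 0.77 (SE 0.18, adjusted p = 0.0126, edgeR) for Flt1, were the 2 smallest among the 29 called genes. Flt4, the receptor for Vegfc that marks lymphatic and fenestrated endothelium, rose from 8.87 ± 3.98 to 17.8 ± 1.63 CPM (0.999). Tek, the angiopoietin receptor, rose from 35.0 ± 14.7 to 81.2 ± 6.80 CPM (1.21), Tie1, its orphan partner, from 27.0 ± 10.6 to 55.2 ± 9.45 CPM (1.03), and Ptprb, the phosphatase that acts on Tek and Cdh5, from 90.0 ± 41.2 to 200.3 ± 9.94 CPM (1.15). The calls of Tie1 and Ptprb were less firm than that of Tek. Tie1 was not called without TG-labelled replicate 1 or 2 or WT-labelled replicate 1 or 2, and Ptprb only stayed called when the library left out was WT-labelled replicate 3.

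Among the other receptors 6 of 7 were called higher (median 1.04). Clec14a (ENSMUSG00000045930), a C-type lectin that is almost restricted to endothelium, had the lowest adjusted p of the 34 genes. It measured 81.7, 88.0, 92.5 and 79.1 CPM in TG-labelled libraries 1 to 4 and 38.4, 33.7, 43.6 and 28.0 CPM in WT-labelled libraries 1 to 4, with no overlap. Clec14a rose by 1.25 on the log2 scale (SE 0.12, adjusted p = 4.78e-06, edgeR). Calcrl and Ramp2 form the receptor for adrenomedullin, and both rose, Calcrl from 44.3 ± 9.10 to 91.0 ± 6.79 CPM (1.04) and Ramp2 from 7.64 ± 2.48 to 17.5 ± 2.94 CPM (1.19). Eng, a co-receptor for bone morphogenetic proteins, changed by 0.89, Robo4, a guidance receptor that stabilises vessels, by 0.97, and Ecscr, an endothelial surface regulator of receptor signalling, by 1.13. Eng was not called without TG-labelled replicate 2 or WT-labelled replicate 1 or 4, and Robo4 was not called without WT-labelled replicate 1 or 2. Cd93 (ENSMUSG00000027435), another C-type lectin, measured 163, 158, 153 and 155 CPM against 77.9, 50.8, 134 and 55.7 CPM, so the groups did not overlap, but the spread of the WT-labelled group was wide and the adjusted p was 0.068 (log2 fold change 0.98, edgeR). Without WT-labelled replicate 3 the log2 fold change of Cd93 was 1.35 and its adjusted p 3.43e-06 (edgeR). Cd93 was not called when any other library was left out.

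Transcription factors of endothelial identity were called higher in 5 of 6 cases and had the highest median of the roles, 1.39. Erg (ENSMUSG00000040732), the ETS factor that maintains junctions and lineage identity, measured 19.98, 19.5, 24.0 and 22.9 CPM in TG-labelled libraries 1 to 4 and 5.17, 9.40, 12.2 and 5.87 CPM in WT-labelled libraries 1 to 4. Fli1 (ENSMUSG00000016087), an ETS factor shared with platelets and leukocytes, measured 55.4, 35.5, 40.8 and 45.7 CPM against 16.3, 11.2, 25.6 and 12.8 CPM. Both factors were higher in every TG-labelled library, with log2 fold changes of 1.40 (SE 0.23, adjusted p = 0.000961) for Erg and 1.43 (SE 0.25, adjusted p = 0.00392, edgeR) for Fli1. Of the SOX factors, Sox17, which acts in arterial endothelium, rose from 3.21 ± 1.32 to 8.71 ± 2.31 CPM (1.43), and Sox18, which acts in vessel and lymphatic development, from 3.73 ± 0.81 to 8.96 ± 2.64 CPM (1.27). Sox7 was near the lower end of what these libraries resolve, at 2.05, 1.56, 0.75 and 1.82 CPM against 0.24, 0.32, 1.67 and 1.16 CPM. Its groups overlapped and its difference of 0.86 had a 95% interval from −0.35 to 2.07. Tal1, a factor of blood and endothelial progenitors that red cell precursors also express, rose from 1.26 ± 0.20 to 3.29 ± 1.28 CPM (1.38).

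Secreted and matrix proteins were the least uniform role, with 2 of 4 called. Egfl7 (ENSMUSG00000026921), a matrix factor that endothelial cells release during tube formation, measured 132, 117, 125 and 99.9 CPM in TG-labelled libraries 1 to 4 and 45.1, 56.2, 69.2 and 47.2 CPM in WT-labelled libraries 1 to 4. These groups were well apart, and Egfl7 rose with a log2 fold change of 1.12 (SE 0.13, adjusted p = 4.63e-05, edgeR). Mmrn2, a matrix ligand of Clec14a and Cd93, was at the edge of the call (0.84, adjusted p = 0.0498) and, of the 8 fits that leave out a library, was called only in the one without WT-labelled replicate 3. Vwf (ENSMUSG00000001930), the clotting factor of endothelial storage granules and platelets, measured 88.8, 56.9, 83.7 and 100.2 CPM against 14.5, 10.2, 49.0 and 11.2 CPM. The lowest TG-labelled library exceeded the highest WT-labelled one, but replicate 3 was more than 3 times as high as the other WT-labelled libraries, and the difference of 1.95 (SE 0.58) had an adjusted p of 0.0654. Without that library the log2 fold change of Vwf was 2.78 with an adjusted p of 2.02e-06 (edgeR). Vwf was not called when any other library was left out.

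Esm1 (ENSMUSG00000042379), a proteoglycan that endothelial cells secrete under Vegfa signalling and a marker of sprouting tips, measured 40.4, 56.1, 49.7 and 61.1 CPM in TG-labelled libraries 1 to 4 and 40.7, 44.6, 57.0 and 48.8 CPM in WT-labelled libraries 1 to 4. The groups overlapped throughout. Its log2 fold change of 0.12 (SE 0.13, adjusted p = 0.602, edgeR) had a 95% interval from −0.16 to 0.40, whose upper end lies below the median of the 34 genes. Esm1 was called under none of the 20 settings tried with a scaling over all genes.

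Of the genes for specialised functions, 3 of 4 were called higher. Gpihbp1 (ENSMUSG00000022579), which carries lipoprotein lipase to the capillary lumen, measured 63.1, 73.1, 58.1 and 75.7 CPM in TG-labelled libraries 1 to 4 and 24.7, 25.2, 38.5 and 23.2 CPM in WT-labelled libraries 1 to 4. Plvap (ENSMUSG00000034845), which forms the diaphragms of fenestrations, measured 112, 155, 128 and 117 CPM against 57.3, 51.8, 95.4 and 44.8 CPM. Both were higher in every TG-labelled library, Gpihbp1 with a log2 fold change of 1.27 (SE 0.15, adjusted p = 7.22e-05) and Plvap with 1.04 (SE 0.24, adjusted p = 0.0165, edgeR), and Plvap lost its call without WT-labelled replicate 1. Nos3 (ENSMUSG00000028978), the endothelial nitric oxide synthase, measured 9.34, 7.73, 8.21 and 5.30 CPM against 4.20, 2.67, 6.76 and 3.18 CPM, overlapped through WT-labelled replicate 3, and was called (0.86, adjusted p = 0.0405) in only 2 of the 8 fits that leave out a library. Lyve1 (ENSMUSG00000030787), the hyaluronan receptor of lymphatic endothelium and some macrophages, was the only gene of the 34 with a negative difference. It measured 17.7, 9.91, 8.08 and 6.10 CPM against 11.98, 8.66, 13.5 and 12.1 CPM, with overlap, and its log2 fold change of −0.15 had a 95% interval from −0.76 to 0.46 (adjusted p = 0.781, edgeR).

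Some of these values rest on exons that another gene shares, and the sources used here do not give the strand setting of the counting. In the GENCODE annotation of the earlier build, 33.4% of the exon bases of Ramp2 are shared with Vps25, 25.2% of those of Nos3 with Gm15587 and 16.8% of those of Sox17 with Gm37587. Smaller shares were found for Egfl7, Eng, Cd34 and Ecscr. The values of these 7 genes are therefore less certain than those of the other 27.

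**Figure D2:**
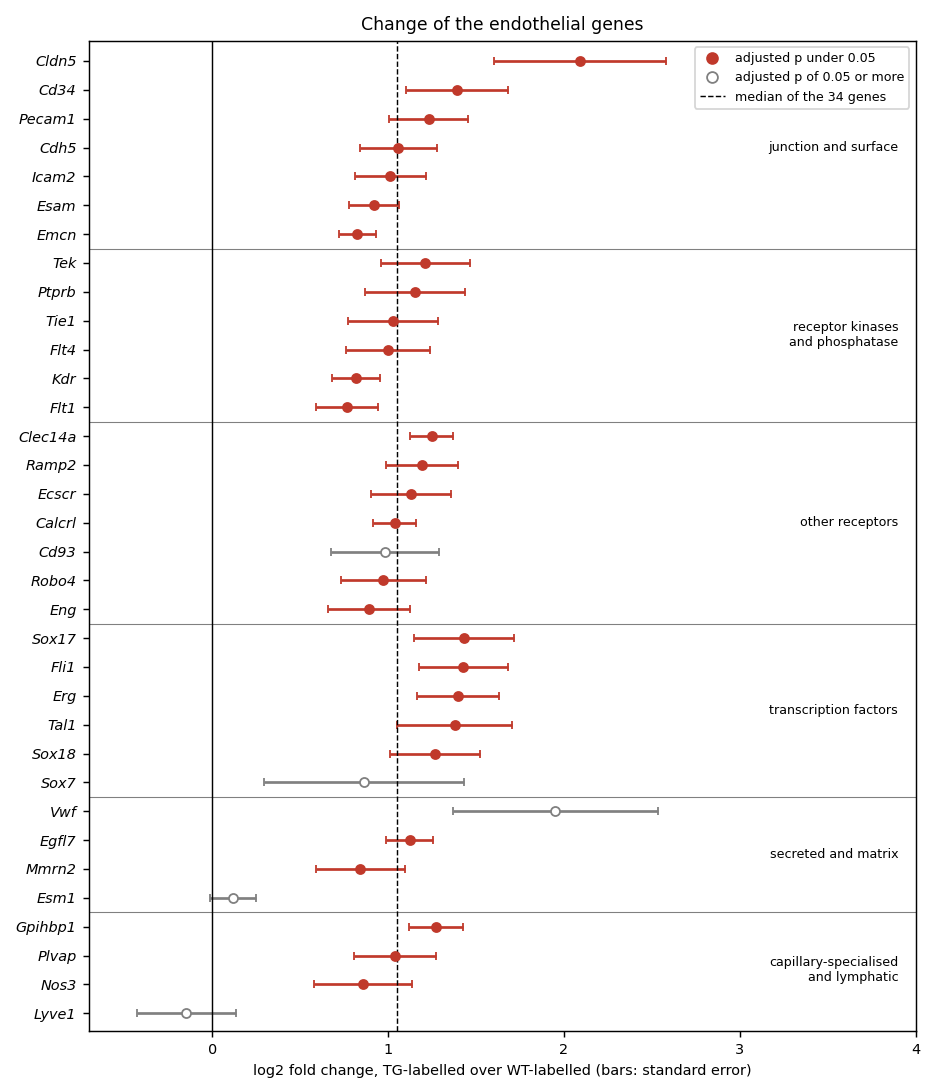
Log2 fold change, TG-labelled over WT-labelled, of the 34 endothelial genes by role, with standard errors as bars. Filled red points passed an adjusted p under 0.05 and open grey points did not, and the dashed line is the median of 1.05. Most genes lie between 0.77 and 1.43, with Cldn5 and Vwf to the right and Esm1 and Lyve1 near 0.

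Per kilobase of exon, 5 of the 6 most abundant of these genes were the same in both groups. In the WT-labelled libraries Plvap had the highest level, 31.4 ± 11.4 RPKM (counts scaled to library size and per kilobase of exon; SD, n = 4), followed by Esm1 with 22.8 ± 3.32, Pecam1 with 20.8 ± 7.36, Emcn with 15.4 ± 2.44, Egfl7 with 15.2 ± 3.06 and Kdr with 12.6 ± 2.93 RPKM. From Plvap to Kdr each gene differed from the next by less than the larger SD of the pair. In the TG-labelled libraries Plvap was first with 64.5 ± 9.69 RPKM and Pecam1 second with 48.8 ± 5.34, ahead of Egfl7 with 33.1 ± 3.88, Emcn with 27.3 ± 1.71, Gpihbp1 with 26.4 ± 3.24 and Esm1 with 24.7 ± 4.24 RPKM. Here the steps from Plvap to Emcn exceeded the larger SD of each pair, and those from Emcn to Esm1 did not. Esm1 thus ranked second in one group and sixth in the other, and Gpihbp1 moved from rank 8 to rank 5. Sox7 was lowest in both groups, at 0.257 ± 0.21 and 0.468 ± 0.17 RPKM.

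To describe how the genes differ among themselves, libraries were also scaled to the summed counts of 8 core endothelial genes (Pecam1, Cdh5, Tie1, Egfl7, Esam, Cldn5, Erg and Robo4) in place of all genes. A change on this scale is relative to the core, and the core genes themselves are not read from it. Of the 26 genes outside the core, 3 were called by edgeR's quasi-likelihood test, Vwf higher and Esm1 and Lyve1 lower. On this scale 1.56% of all tested genes were called higher and 70.4% lower, so a lower call is common and a higher one is not. The median over all tested genes was −1.22. Vwf had a log2 fold change of 0.96 relative to the core (SE 0.24, adjusted p = 0.00012), Esm1 of −1.08 (SE 0.24, adjusted p = 1.33e-05) and Lyve1 of −1.37 (SE 0.26, adjusted p = 6.4e-07).

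As a percentage of the summed core counts, Esm1 measured 5.69, 9.14, 7.74 and 9.71% in TG-labelled libraries 1 to 4 and 14.8, 18.6, 13.4 and 21.3% in WT-labelled libraries 1 to 4. Lyve1 measured 2.48, 1.62, 1.26 and 0.97% against 4.36, 3.61, 3.17 and 5.28%. For both genes every TG-labelled library lay below every WT-labelled one. Vwf measured 12.5, 9.29, 13.02 and 15.9% against 5.29, 4.24, 11.5 and 4.88%, so WT-labelled replicate 3 lay inside the TG-labelled range. Flt1 and Mmrn2 also did not overlap, Flt1 at 19.8 to 32.2% against 32.3 to 40.5% and Mmrn2 at 10.4 to 11.8% against 12.2 to 15.6%, but neither was called relative to the core (adjusted p = 0.123 and adjusted p = 0.277 by edgeR). Lower values on this scale were common, with 70.4% of all tested genes called lower. The share of all tested genes without overlap on this scale is not given here. Plvap measured 19.9 ± 3.99% against 21.1 ± 1.22% and Gpihbp1 10.5 ± 1.74% against 9.67 ± 0.77%, both with overlap. Without WT-labelled replicate 3, 6 genes were called relative to the core, the others being Kdr (−0.39, adjusted p = 0.0191), Flt1 (−0.41, adjusted p = 0.0242) and Emcn (−0.45, adjusted p = 0.00411), and without each of the other libraries 3 were called.

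**Figure D3:**
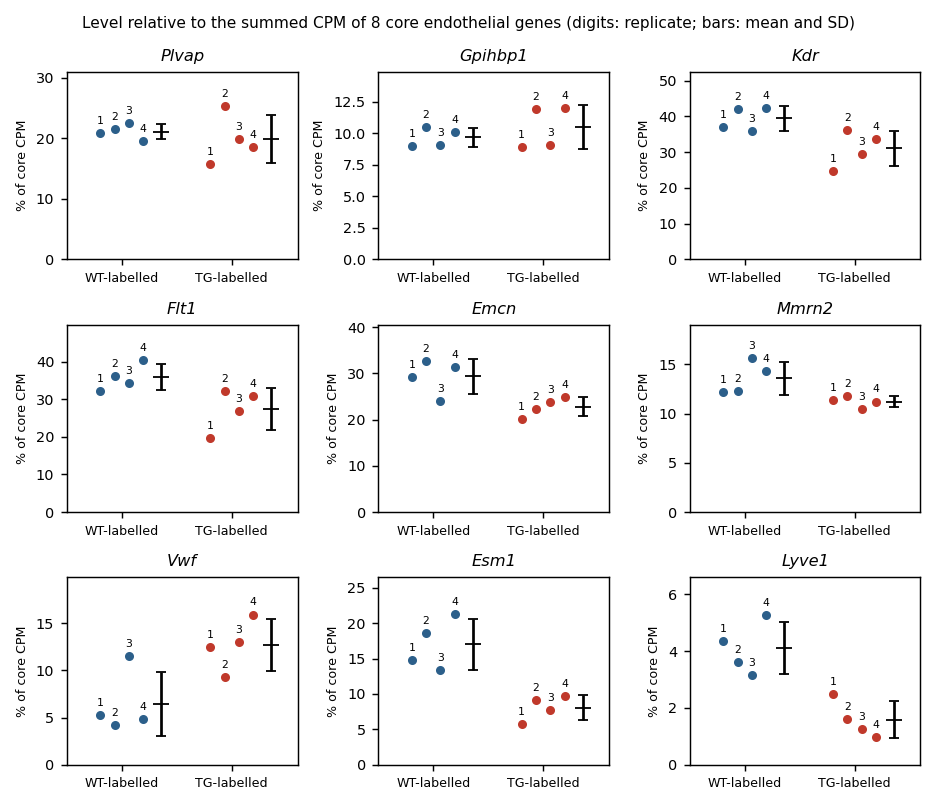
Level of 9 endothelial genes in each library as a percentage of the summed counts of 8 core endothelial genes, with axes that start at 0. Digits are replicate numbers and bars show the mean and SD of 4 libraries. Esm1 and Lyve1 are lower in every TG-labelled library, Vwf is higher in TG-labelled libraries apart from an overlap with WT-labelled replicate 3, and the groups overlap for Plvap and Gpihbp1.

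Most tested genes of other cell types of the vessel wall and of blood were also called higher. Of 20 genes of mural cells and fibroblasts 15 were called higher (edgeR, median log2 fold change 1.46; 7 without WT-labelled replicate 1), and their sum was 4001 to 7451 CPM in the TG-labelled and 1019 to 3198 CPM in the WT-labelled libraries, replicate 3 again being the highest WT-labelled one. Of 13 tested macrophage genes 10 were called higher, with sums of 192 to 497 CPM against 107 to 177 CPM. By limma-voom 7 of them were called higher, and with 1 library left out edgeR called 7 to 9. Without TG-labelled replicates 2 and 3 together, 2 of the 12 then tested were called. The macrophage gene C1qa stood at 69.3 ± 12.5 CPM in the WT-labelled and 67.0 ± 9.64 CPM in the TG-labelled libraries. Of 15 tested leukocyte, platelet and red cell genes 9 were called higher, with sums of 402 to 793 CPM against 103 to 372 CPM, and 5 were called without TG-labelled replicate 1 or 2 or WT-labelled replicate 2. The platelet genes Pf4 (6.21 ± 4.95 to 24.8 ± 3.69 CPM) and Itga2b (6.57 ± 2.45 to 16.2 ± 3.45 CPM) were among those called, as were Ppbp and Gp9. Another platelet gene, Gp1ba, was lower with the TG label and not called (4.86 ± 0.78 to 3.92 ± 1.27 CPM). Of the 15 tested genes 13 had a positive difference. Platelets share Pecam1, Vwf and Fli1 with endothelium. Folr2, Cd3e, Nkg7 and S100a8 were too low to test. Of 10 genes of the pancreatic duct 7 were called higher (median 0.88), and their sum was 1576 to 1969 CPM in the TG-labelled and 992 to 1095 CPM in the WT-labelled libraries. They included the keratin Krt19 (7.44 ± 5.58 to 51.8 ± 24.1 CPM) and the duct transcription factor Sox9 (2.44 ± 0.59 to 5.37 ± 2.52 CPM), while the keratin Krt7 stood at 298 ± 29.5 and 291 ± 40.7 CPM. Without TG-labelled replicate 1 or 3 or WT-labelled replicate 1, 4 duct genes were called, and 3 without WT-labelled replicate 2. Of 8 Schwann cell genes 2 were called higher and all 8 were positive (median 0.42), with sums of 145 to 174 CPM against 107 to 146 CPM. Without TG-labelled replicates 2 and 3 together, 5 of 20 mural and fibroblast genes and 5 of 10 duct genes were called higher. In the same fit 3 of the 14 then tested leukocyte, platelet and red cell genes were called higher. Beta-cell genes went the other way. All 10 were called lower, and their sum was 54254 ± 6683 CPM in the TG-labelled and 113019 ± 8438 CPM in the WT-labelled libraries. CPM is a share of each library. The part of the lower beta-cell share, and of the other cell types, in the endothelial differences was not tested.

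With the mean log2 CPM of the 14 macrophage genes as a covariate, 0 of the 34 endothelial genes were called by edgeR, and 7 had an unadjusted p under 0.05. The median log2 fold change was then 0.49, with 30 of the 34 positive, and the median standard error of the 34 rose from 0.237 to 0.370. The same covariate left 278 of all tested genes called. In edgeR it left 0 genes called higher in the mural and fibroblast, the leukocyte, platelet and red cell, and the duct lists. In DESeq2 it left 2 of the 34, Clec14a and Gpihbp1. The macrophage sums themselves did not overlap between the groups. When the 2 TG-labelled libraries with the highest macrophage sums, replicates 2 and 3, were left out, 18 of the 34 were called, the median was 1.06 and the ratio of summed endothelial CPM 2.04. Acinar genes, which mark exocrine tissue carried over with the islets, had a median log2 fold change of 1.08, with all 14 positive, and their summed CPM was 2.18 times as high in the TG-labelled libraries. Their groups overlapped, and 0 of the 14 were called by edgeR, at an unadjusted p under 0.05 too, and 0 by DESeq2 and limma-voom. Without TG-labelled replicate 1 the acinar median was 0.25. With them as a covariate 27 of the 34 endothelial genes were called.

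**Figure D4:**
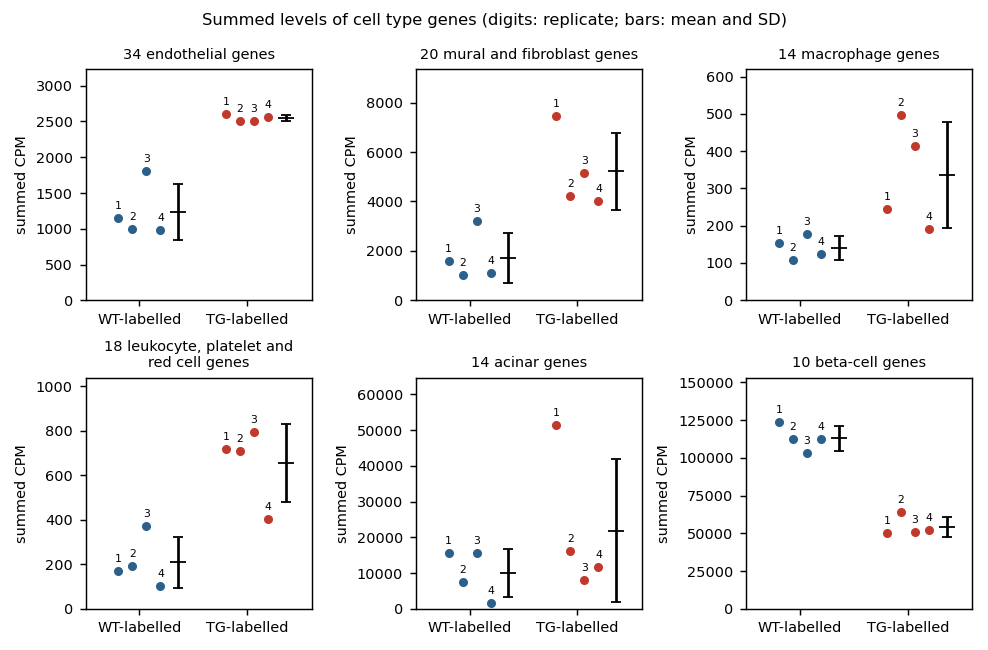
Summed CPM of the 34 endothelial genes and of 5 lists of other cell types in each library, with axes that start at 0. Digits are replicate numbers and bars show the mean and SD of 4 libraries. Endothelial sums are 2511 to 2603 CPM in TG-labelled and 985 to 1810 CPM in WT-labelled libraries, mural, macrophage and blood cell sums are also higher, beta-cell sums are lower, and TG-labelled replicate 1 stands out for acinar genes.

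Beyond the 34 genes, a wider list of 67 endothelial genes was examined. Of the 66 tested, 53 were called higher and 1 lower by edgeR, with a median log2 fold change of 0.95. The 4 with the lowest adjusted p were Tmem204, an endothelial membrane protein (1.18, adjusted p = 2.17e-06), Adgrl4, an adhesion G protein-coupled receptor (1.26, adjusted p = 4.18e-05), Adgrf5, another (0.90, adjusted p = 5.73e-05), and Bmpr2, the type II receptor that works with Eng (0.74, adjusted p = 7.82e-05). The single gene that fell, singled out once its value was known, was Bcl6b, a transcriptional repressor, at 10.3 ± 0.37 CPM against 17.2 ± 3.75 CPM (−0.74, SE 0.16, adjusted p = 0.00467). Foxc2 was too low to test.

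Lists of marker genes of vessel types had median log2 fold changes from 0.64 to 2.07, with no test between lists. In the arterial list 9 of 11 genes were called higher (median 1.15), led by Unc5b (2.55), a netrin receptor, with Hey1 (1.32), Jag1 (1.02) and Gja4 (1.15), a target of Notch, a Notch ligand and a connexin. The arterial genes that were not called were the Notch ligand Dll4 (−0.15) and the receptor Notch1 (0.06), singled out once their values were known. In the list of venous and activated endothelium all 7 tested genes were called higher (median 2.07), among them the adhesion molecules Vcam1 (5.35 ± 1.51 to 16.2 ± 2.37 CPM, 1.59), Icam1 (2.47 ± 1.13 to 10.4 ± 2.17 CPM, 2.07) and Selp (0.872 ± 0.80 to 4.24 ± 0.94 CPM, 2.25) and the secreted Lrg1 (2.12). Selp is also a platelet protein, and the cell source of the other genes in this list was not tested. The capillary list had 6 of 10 called higher (median 1.10), led by Car4 (1.89), Cd36 (1.35), Fabp4 (1.85) and Sgk1 (1.13). The capillary genes that were not called were Aplnr (1.06), Car8 (0.17), Lpl (−0.26) and Timp4 (−0.41), singled out once their values were known. Tip cells, which lead sprouting vessels, were represented by 8 genes, of which Nid2 (0.75), Lcp2 (1.35) and Cxcr4 (0.84) were called higher (median 0.64), while Pdgfb stood at 0.74 with an adjusted p of 0.0543 by edgeR. Without TG-labelled replicate 3 or WT-labelled replicate 2 or 4, 1 tip cell gene was called. Without TG-labelled replicates 2 and 3 together 0 of the 8 were called. Whether the transcripts of the arterial, capillary and tip cell genes came from those cells or from other cells was not tested.

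Of 8 lymphatic genes 5 were called higher (median 1.55). Thy1 (1.36), Maf (1.73), Fgl2 (0.65) and Pdpn (2.30) had the lowest adjusted p-values, and fibroblasts or macrophages also express each of these. Prox1, the transcription factor that defines lymphatic endothelium and is also found in endocrine cells, measured 51.4 ± 3.88 CPM against 51.8 ± 4.54 CPM (−0.01). Lyve1, described above, was not called either. Ccl21a, whose near-identical copies make its counts uncertain, measured 1.19 to 8.42 CPM in the TG-labelled and 0 to 0.37 CPM in the WT-labelled libraries. With the macrophage covariate, 1 arterial and 1 capillary gene were called by edgeR and none of the other vessel lists, and 1 and 2 in DESeq2. No difference between any 2 of these lists was tested.

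**Figure D5:**
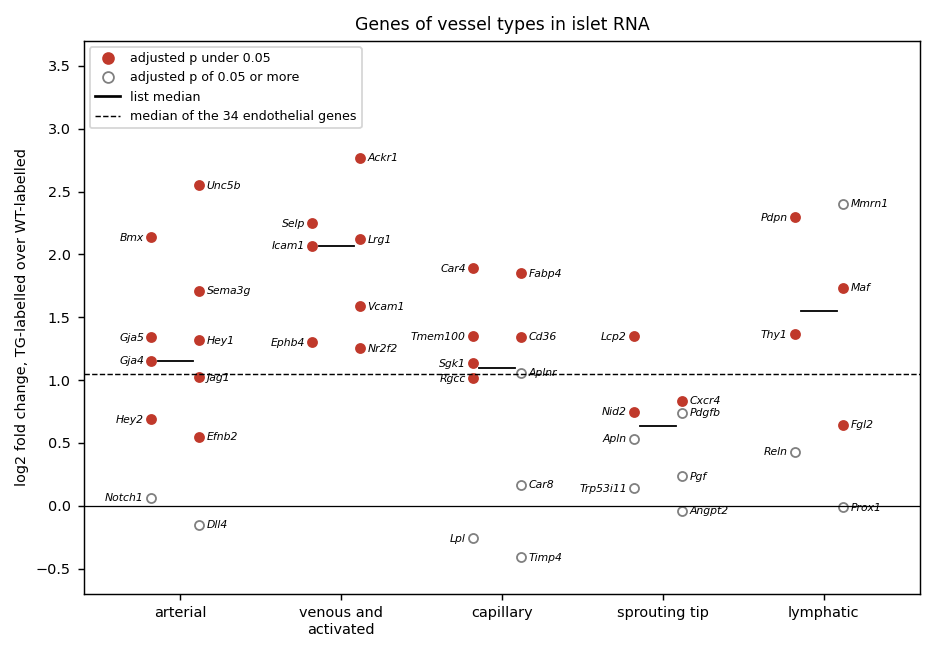
Log2 fold change of tested marker genes of 5 vessel types. Filled points passed an adjusted p under 0.05, open points did not, short lines are list medians (1.15, 2.07, 1.10, 0.64 and 1.55 from left to right) and the dashed line is the median of the 34 endothelial genes. Ccl21a counts toward the lymphatic median and is not drawn. Dll4, Notch1, Angpt2 and Prox1 lie near 0 in the lists that hold them, and the capillary genes Lpl and Timp4 lie below 0.

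Of 12 tested ligands of the endothelial receptors 3 were called higher (median 0.78), beside 12.1% of all tested genes, and no statement about ligands as a group rests on so small a count. With the macrophage covariate 0 of the 12 were called by edgeR and 1 by DESeq2, and the median was 0.15 in both. Vegfa measured 368 ± 30.7 CPM in the TG-labelled and 384 ± 45.2 CPM in the WT-labelled libraries (log2 fold change −0.06, SE 0.10, adjusted p = 0.719, edgeR), with overlap, while its receptors Kdr and Flt1 rose. Angpt1, the agonist of Tek that mural cells release, rose from 5.58 ± 1.49 to 22.0 ± 7.36 CPM (1.97, SE 0.26, adjusted p = 0.000228, edgeR). Angpt2, the ligand of Tek that endothelial cells store, measured 20.2 ± 1.76 CPM against 20.7 ± 2.47 CPM (−0.04). Slit2, a guidance ligand of the ROBO family, rose from 14.4 ± 4.12 to 32.4 ± 9.53 CPM (1.16). Pgf and Vegfb, ligands of Flt1, stood at 0.23 and −0.57 and were not called. Adm, the adrenomedullin that Calcrl and Ramp2 bind, was the third called ligand (1.78, adjusted p = 0.0281, edgeR), singled out once its value was known, from 0.713 ± 0.74 to 2.49 ± 0.46 CPM.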

How the data were processed

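Read counts per Ensembl mouse gene were taken as the authors deposited them, whole and not normalized, from 8 islet libraries (4 TG-labelled, 4 WT-labelled). Per the submitters' processing notes, the tools were STAR 2.7.10a and HTSeq 0.11.3 on the build mm39. The sources used here do not give the strand setting. Rows for reads in no gene (25.3 to 31.5%) and ambiguous reads (3.74 to 4.36%) were left out. Symbols and exon lengths came from a GENCODE annotation of the earlier build GRCm38, which named 52081 of 55414 identifiers. Within each group, all pairs of libraries differed by more than sampling noise (chi-square per gene 16.4 to 58.7).

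Genes were filtered with filterByExpr at a minimum count of 10, scaled by TMM and tested in edgeR 4.0.16 under R 4.3.3 (glmQLFit with robust estimation, two-sided glmQLFTest, group as the single term). Benjamini-Hochberg adjustment ran over all 20509 tested genes, and calls required an adjusted p under 0.05. Standard errors are the log2 fold change divided by the root of the test statistic, and intervals are at 95%. CPM and RPKM used effective library sizes. Simulated data were used to check the edgeR script.

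The 34 genes and all other lists were chosen with earlier results of these data known, so no list was tested as a set. All 34 genes are named, and from other lists the 4 genes with the lowest adjusted p, or for ligands the 6 with the highest mean CPM, or defining markers of other cell types, besides those said to be singled out once their values were known. Alternatives were DESeq2 1.42.0, limma-voom (limma 3.58.1), median-of-ratios and upper-quartile scaling, leaving out the filter, requiring 1 CPM in 4 libraries, the replicate number as a block, the mean log2 CPM (pseudocount 0.5) of acinar or macrophage genes as a covariate, scaling to 8 core endothelial genes, and each library left out in turn. Leaving out TG-labelled replicates 2 and 3, the macrophage covariate in DESeq2, the core-scaled fits without each library and the alternatives for the vessel, ligand and other cell type lists were added after seeing the data. Plots used matplotlib 3.10.9 (Python 3.11.15).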

Additional observations from a re-analysis of the deposited data

Results flagged for a closer look

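For each of the 34 genes in each group of 4 libraries, and for their sum, the library farthest from the others was compared with Dixon's critical value of 0.829. Of 70 such tests 8 passed, and chance flags about 1 in 20 groups. In 7 of the 8 the library that stood apart was WT-labelled replicate 3, the highest of its group. It measured 153 CPM for Kdr against 97.3 to 102 CPM in the other WT-labelled libraries, 146 CPM for Flt1 against 87.1 to 92.7 CPM, and 22.9 CPM for Robo4 against 10.02 to 11.9 CPM. For Mmrn2 it held 66.3 CPM against 29.5 to 33.4 CPM, and for Vwf 49.0 CPM against 10.2 to 14.5 CPM. Ramp2 stood at 11.3 CPM against 6.11 to 6.81 CPM, and Gpihbp1 at 38.5 CPM against 23.2 to 25.2 CPM. The same library also held the highest WT-labelled sum of mural and fibroblast genes, 3198 CPM, and of leukocyte, platelet and red cell genes, 372 CPM. The 8th case was Cldn5 in TG-labelled replicate 1, at 10.7 CPM against 4.37 to 5.29 CPM in the other TG-labelled libraries, and that library also held the most acinar RNA.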

How the results depend on the processing

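The 29 higher calls among the 34 genes became 31 with DESeq2 and with limma-voom, 29 with either other scaling or the 1 CPM filter, 28 with no filter and 27 with the acinar covariate. Cd93 and Vwf were gained in DESeq2, limma-voom and the fit without WT-labelled replicate 3. With no filter the median log2 fold change of all genes shifted to 0.11. The macrophage covariate ended the calls: 0 of the 34, 2 of the wider list (both higher) and 278 of all genes (126 higher, 152 lower), with a median of 0.49 for the 34. In DESeq2 it gave 2 of the 34, 3 of the wider list (2 higher) and 554 of all genes (237 higher, 317 lower), with a median of 0.50. Without TG-labelled replicates 2 and 3, 18 of the 34, 30 of the wider list (29 higher) and 2254 of all genes (1267 higher, 987 lower) were called. With the macrophage covariate Tie1, Robo4 and Nos3 changed sign, to −0.0271, −0.0412 and −0.33 in edgeR and −0.0171, −0.031 and −0.32 in DESeq2. The cause was not tested.

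Leaving out 1 library at a time gave 22 to 31 calls among the 34, medians of 0.97 to 1.32, ratios of summed CPM of 1.92 to 2.43, 39 to 60 calls in the wider list (38 to 59 higher), 2864 to 4404 calls among all genes (1691 to 2622 higher, 1122 to 2131 lower) and 3 to 6 calls relative to the core. Tip cell genes called higher ranged from 1 to 3 in these fits. Scaling to the core, which makes a change relative to endothelial genes, turned Kdr to −0.34, Flt1 to −0.39, Flt4 to −0.12, Emcn to −0.36, Plvap to −0.0853, Eng to −0.22, Mmrn2 to −0.28, Esm1 to −1.08, Nos3 to −0.26, Calcrl to −0.14, Ecscr to −0.044 and Icam2 to −0.12, and Sox7 to −0.23 and Cd93 to −0.12, which were called in neither fit. Same-numbered libraries of the 2 groups deviated together only weakly (correlations 0.022 to 0.12). Of the 4 TG-labelled libraries 2 correlated best with their own number. The numbers were not taken as pairs, though these values do not settle whether they are. With the replicate block 29 of the 34 were called, the same 29, and 4673 of all genes. The median standard error of the 34 was 0.176 with the block and 0.237 without it. Depth limited Sox7 most, with 5 counts in its lowest library.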
